A study of Mus musculus with 18 samples.

Results

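The genes described here encode 39 nuclear-coded proteins that keep, transcribe and translate the mitochondrial genome. They were taken by symbol from a table of 25731 genes, and all 39 were present and had enough reads to be tested. They fall into 6 role classes: 6 transcription genes (the mitochondrial RNA polymerase among them), 4 replication proteins, 2 proteins that stabilise mitochondrial messenger RNA, 8 translation factors, 3 subunits of the GatCAB amidotransferase and 16 mitochondrial aminoacyl-tRNA synthetases. RNA was sequenced from the hearts of adult male wild-type C57BL/6 mice at day 7 after surgery, with 1 library for each of 18 animals. The groups were ischemia-reperfusion with decursin (IR+Decursin), ischemia-reperfusion (IR) and sham surgery (SHAM), with 6 mice each. Decursin is a plant coumarin, and the labels give neither its dose and route nor how the surgery was done.

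Mitochondria hold many copies of a small circular genome that encodes subunits of the respiratory chain, and everything needed to copy and read it is made from nuclear genes. TFAM packs the DNA and opens its promoters for the polymerase POLRMT and the factor TFB2M, while the polymerase POLG works with the helicase Twinkle and a single-strand binding protein. The transcripts are kept stable by LRPPRC and SLIRP, and are read on mitochondrial ribosomes with a bacterial-type set of initiation, elongation and release factors and a set of synthetases of their own. Heart muscle is rich in mitochondria, and inherited faults in several of these genes cause cardiomyopathy in humans.

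The libraries held 27525876 to 34974692 counts. The labels put each group in a batch of its own, so batch and group cannot be told apart. Heart was the labelled tissue, and its defining cardiomyocyte genes were present in every library, with 10 markers summing to 39988 to 87916 CPM (counts scaled to a common library size). Fewer cells of a type and less RNA per cell cannot be told apart in such samples. Some libraries stood apart. IR 3, IR 4 and IR+Decursin 2 held over 1000 counts of Xist although the labels call all animals male, and IR 1 and IR+Decursin 6 held over 100000 counts of Gm26917, a gene model that collects ribosomal RNA reads. IR+Decursin 6 and IR 2 held 251 and 215 CPM of the atrial gene Myl7, against 2.00 to 58.9 CPM in the other 16, a gene looked at after its values were seen.

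Promoters are shown because most of these genes moved in the same direction, and because nuclear respiratory factor 1 (NRF1) and the ETS factor GABP are known regulators of Tfam, Polrmt and other genes of this set. RefSeq promoter windows of build GRCm38.p6, from 250 bases before to 50 bases after the start, were found for 34 of the 39 members. Both strands were searched for GCATGCGC, the core of the NRF1 site, and for CCGGAAG, an ETS-type site. The first was found in 5 of the 34 members (14.7%; Polrmt, Rars2, Tfb2m, Vars2 and Wars2), against 3.05% of 27025 genes with a window and 5.34% of the 11753 of them that were tested. The second was found in 15 members (44.1%), against 9.93% of genes with a window and 18.2% of those tested. Polrmt and Rars2 held both, with no overlap between the matches. A match says only that the letters are there, and binding was not measured. The 6 windows below hold 120 bases each, read 5′ to 3′ along the gene, with the matches on either strand in capitals. They end at the last base before the start, at position -1, except that the window of Polrmt runs from -143 to -24 and that of Slirp from -156 to -37. They show every match of these genes but 1 of Slirp, 11 bases before the start. Tfam, Polrmt, Polg2, Slirp and Vars2 were among the most changed genes of their classes. Wars2 is shown because it holds a match and did not pass the test in IR hearts. Lrpprc, Tsfm, Qrsl1 and Yars2, also among the most changed of their classes, held no match in their windows. Whether a match went with a larger fall was not tested.
Tfam (chr10:71238045-71238164, minus strand): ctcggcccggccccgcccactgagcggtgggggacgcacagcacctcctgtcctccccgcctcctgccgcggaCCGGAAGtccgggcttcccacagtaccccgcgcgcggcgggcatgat
Polrmt (chr10:79746605-79746724, minus strand): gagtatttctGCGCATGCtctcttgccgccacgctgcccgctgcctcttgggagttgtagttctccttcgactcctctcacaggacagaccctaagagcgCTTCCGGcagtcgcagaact
Polg2 (chr11:106779538-106779657, minus strand): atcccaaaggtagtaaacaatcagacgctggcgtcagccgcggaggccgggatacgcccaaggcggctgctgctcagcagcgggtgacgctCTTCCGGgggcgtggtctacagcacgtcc
Slirp (chr12:87443740-87443859, plus strand): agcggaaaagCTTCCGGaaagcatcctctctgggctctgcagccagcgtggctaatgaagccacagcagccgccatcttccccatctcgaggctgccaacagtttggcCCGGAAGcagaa
Vars2 (chr17:35667593-35667712, minus strand): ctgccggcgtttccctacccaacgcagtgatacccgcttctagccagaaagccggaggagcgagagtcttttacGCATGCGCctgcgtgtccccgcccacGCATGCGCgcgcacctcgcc
Wars2 (chr3:99140970-99141089, plus strand): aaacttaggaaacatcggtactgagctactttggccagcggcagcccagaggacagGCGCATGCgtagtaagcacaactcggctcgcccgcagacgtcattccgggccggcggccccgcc

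The first comparison asked what ischemia-reperfusion did to these genes. In IR hearts 35 of the 39 members were lower than in SHAM hearts and none was higher, at an adjusted p under 0.05 (edgeR's quasi-likelihood test with Benjamini-Hochberg adjustment over 15088 genes). Over all genes tested, 21.7% were called lower and 25.3% higher. The members' median log2 fold change was -0.49, against -0.0018 for all genes, and 38 of 39 lay below 0. For 27 members every IR library lay below every SHAM library. The 4 members that did not pass were Twnk (log2 fold change -0.27, adjusted p = 0.0877), Wars2 (-0.27, adjusted p = 0.0605), Pars2 (-0.31, adjusted p = 0.140) and Lars2 (0.66, adjusted p = 0.662).

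**Figure D1:**
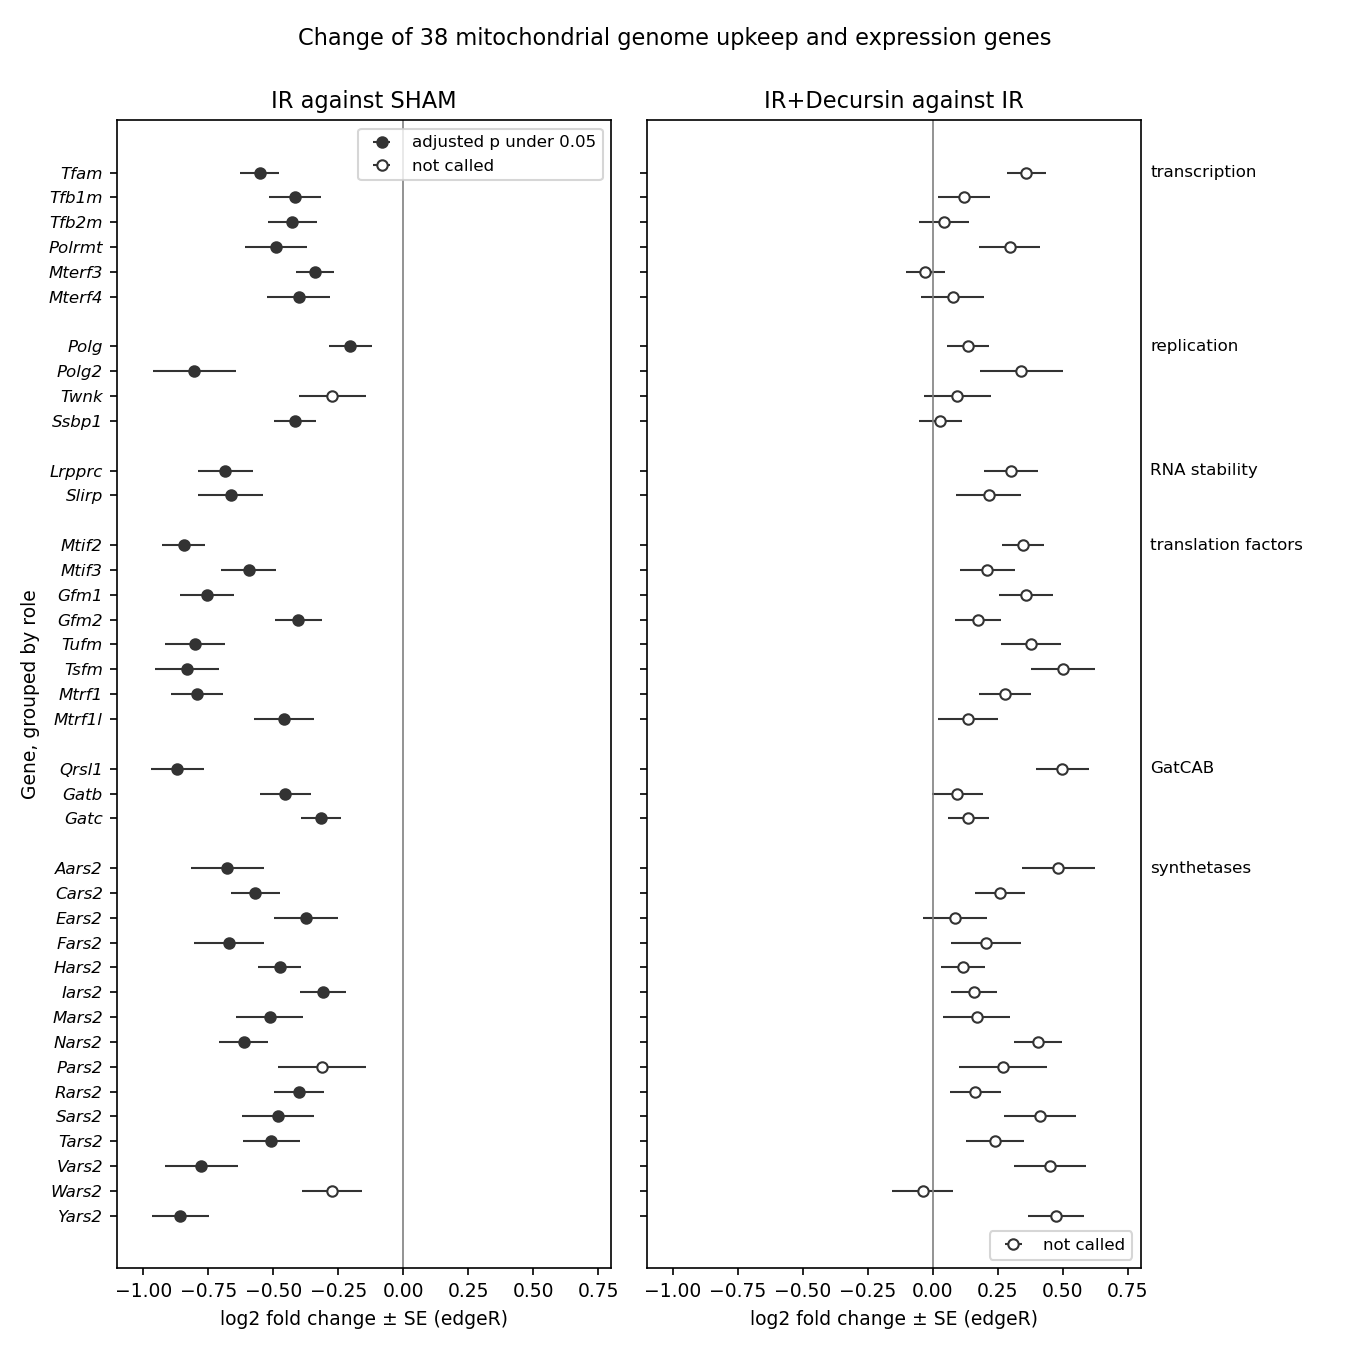
Log2 fold changes with their standard errors (x axis) for 38 members in rows by role class, for IR against SHAM on the left and IR+Decursin against IR on the right; filled points had an adjusted p under 0.05. All 38 points lie below 0 on the left, and 36 of the 38 lie above 0 on the right, where none is filled. Lars2 is left out because of its large error.

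The size of the fall depended on how libraries were scaled to each other. Scaled by library totals alone, the median gene moved to 0.31 and the members' median to -0.18, so that their distance from the median gene was much the same. The calls then split into 7012 higher and 1056 lower genes (7.00% lower), against 3810 and 3269 with TMM scaling, and 17 members passed as lower. Those 17 were Tfam, Polg2, Lrpprc, Slirp, 6 of the 8 translation factors, Qrsl1 and 6 synthetases. With that scaling Polg, Twnk, Lars2, Pars2 and Wars2 lay above 0, none of them past the test.

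All 6 transcription genes fell in IR hearts, with log2 fold changes between -0.55 and -0.34. Tfam, the high-mobility-group protein that packs mitochondrial DNA and starts its transcription, had 28.3 CPM in the lowest, 31.4 in the median and 36.6 in the highest IR library, against 40.7, 47.1 and 52.0 CPM in SHAM libraries. The highest IR library was below the lowest SHAM library, and the log2 fold change was -0.55 ± 0.08 (SE; edgeR adjusted p = 1.4e-05). Polrmt, the single-subunit RNA polymerase of mitochondria, had 13.0, 16.2 and 19.2 CPM in IR libraries, against 20.9, 23.4 and 25.1 CPM in SHAM libraries. The groups did not overlap, and Polrmt fell by 0.49 ± 0.12 on the log2 scale (edgeR adjusted p = 0.00199), a call that was lost with library totals alone (adjusted p = 0.192). The transcription factor Tfb2m (-0.43), the ribosomal RNA methyltransferase Tfb1m (-0.42), and Mterf4 (-0.40) and Mterf3 (-0.34), relatives of the termination factor that act in ribosome assembly, also fell. Among these 4, only Mterf4 had IR libraries that overlapped the SHAM range.

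Of the 4 replication genes, 3 fell. The largest change was in Polg2, the accessory subunit that lets the polymerase hold on to its template. It had 1.62, 2.10 and 2.43 CPM in IR libraries, against 2.74, 3.54 and 4.28 CPM in SHAM libraries. The ranges were apart, with a log2 fold change of -0.80 ± 0.16 (edgeR adjusted p = 0.000414), although Polg2 also had the lowest count of any of the 38 members other than Lars2 (59 reads in 1 library). Ssbp1, which coats single-stranded mitochondrial DNA, had 25.9, 26.7 and 29.0 CPM in IR libraries, against 30.4, 36.4 and 39.8 CPM in SHAM libraries. Its groups were also apart (-0.42 ± 0.08, edgeR adjusted p = 0.000326; 0.215 with library totals alone). The catalytic subunit Polg changed least of all the called members (-0.20 ± 0.08, edgeR adjusted p = 0.0472), and it lost its call in 9 of the 12 fits that left out 1 library. The helicase gene Twnk passed in 2 of those 12 fits, without IR 5 and without SHAM 6, and the synthetase gene Wars2 in 3.

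Both RNA stability genes fell. Lrpprc, a pentatricopeptide-repeat protein that binds mitochondrial messenger RNA, had 102, 128 and 149 CPM in IR libraries, against 178, 205 and 242 CPM in SHAM libraries. Slirp, its small binding partner, had 22.4, 25.6 and 32.2 CPM in IR libraries, against 34.3, 43.2 and 46.7 CPM in SHAM libraries. Neither gene had overlapping groups, and their log2 fold changes were close to each other, -0.69 ± 0.11 for Lrpprc (edgeR adjusted p = 3.8e-05) and -0.66 ± 0.13 for Slirp (edgeR adjusted p = 0.000244). The 13 protein-coding genes of the mitochondrial genome itself had a median log2 fold change of -0.71 in IR hearts. Of these, 11 fell, against 21.7% of all genes called lower.

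The translation factors formed the class with the lowest median, -0.77, and all 8 fell with no overlap between IR and SHAM libraries. Mtif2, the initiation factor that places the first transfer RNA on the ribosome, had 28.0, 31.9 and 37.7 CPM in IR libraries, against 55.5, 58.4 and 62.2 CPM in SHAM libraries. The gap between the groups was wider than the spread within either, and Mtif2 had the smallest p of the members (-0.84 ± 0.08, edgeR adjusted p = 1.91e-06). Tsfm, which recharges the elongation factor Tufm with GTP, had 11.7, 14.9 and 16.3 CPM in IR libraries, against 21.8, 26.8 and 29.5 CPM in SHAM libraries (-0.83 ± 0.12, edgeR adjusted p = 2.5e-05). Tufm, which carries charged transfer RNA to the ribosome, fell by 0.80, the release factor gene Mtrf1 by 0.79 and the translocase Gfm1 by 0.75. The smaller changes were in Mtif3 (-0.59), an initiation factor that splits the ribosome, the release factor Mtrf1l (-0.46) and Gfm2 (-0.40), which recycles ribosomes and takes no part in elongation.

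**Figure D2:**
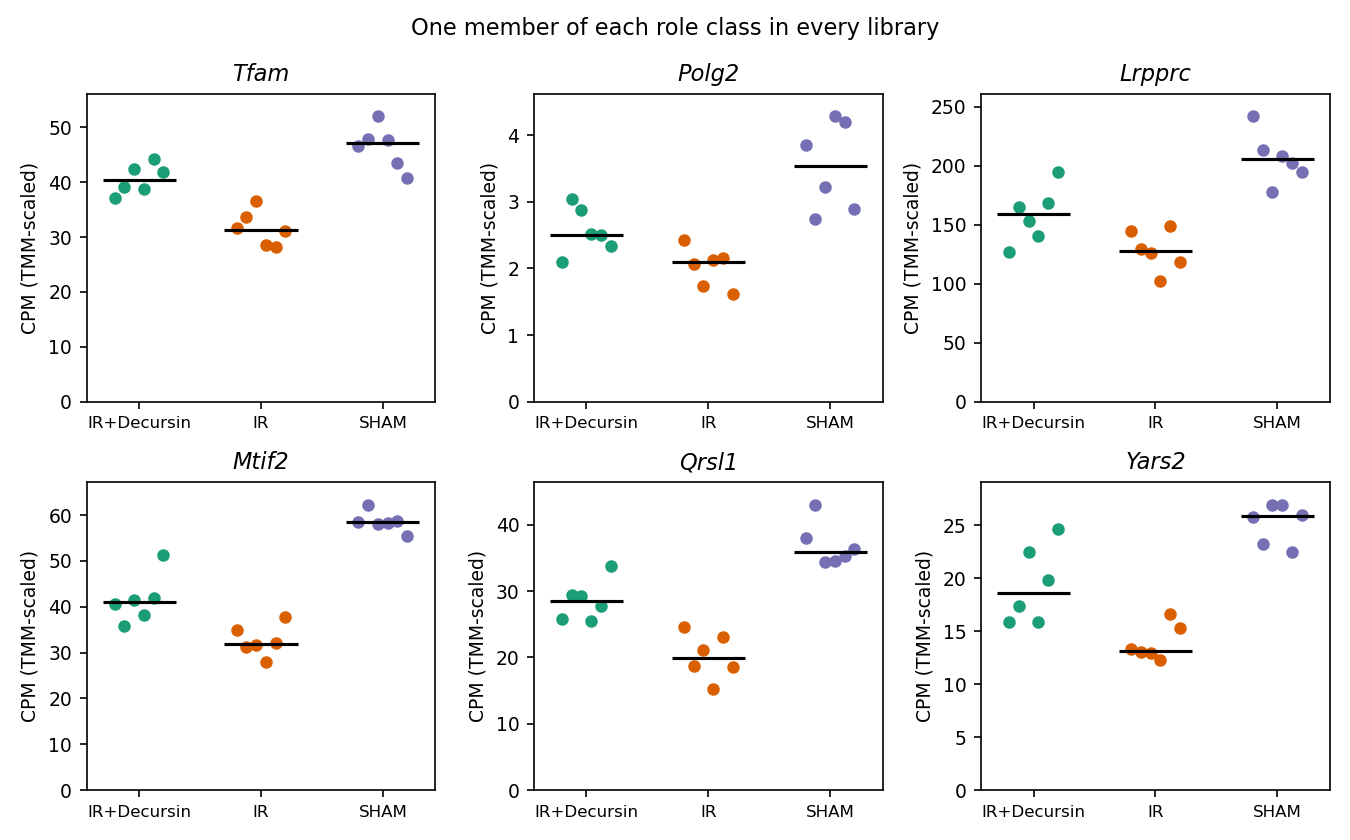
TMM-scaled CPM (y axis, from 0) of 1 member of each role class in every library, with IR+Decursin, IR and SHAM from left to right and a line at each group's median. In all 6 panels the IR points lie below the SHAM points; IR+Decursin points of Tfam and Qrsl1 all lie above the IR points.

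GatCAB makes glutaminyl-tRNA in mitochondria by amidating a wrongly charged precursor, since mammalian mitochondria have no glutaminyl-tRNA synthetase of their own. Its subunit genes fell unequally. Qrsl1, the amidotransferase subunit A, had 15.2, 19.9 and 24.5 CPM in IR libraries, against 34.3, 35.8 and 43.0 CPM in SHAM libraries. This was the largest fall of the 39 (-0.87 ± 0.10, edgeR adjusted p = 5.3e-06), and the groups were far apart. Gatb had 29.1, 33.1 and 43.2 CPM in IR libraries, against 43.1, 47.6 and 51.7 CPM in SHAM libraries, so that the highest IR library, IR 1, reached just into the SHAM range (-0.45 ± 0.10, edgeR adjusted p = 0.000863; 0.160 with library totals alone). Gatc, the smallest subunit, fell by 0.32. Whether Qrsl1 fell more than its partners was not tested.

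Of the 16 synthetases, which charge mitochondrial transfer RNA with amino acids, 13 fell and none rose, with a median log2 fold change of -0.50. Yars2, the tyrosine enzyme, had 12.3, 13.2 and 16.6 CPM in IR libraries, against 22.5, 25.9 and 26.9 CPM in SHAM libraries. All 6 IR libraries lay well below the SHAM range (-0.86 ± 0.11, edgeR adjusted p = 7.6e-06). Vars2, the valine enzyme, had 10.8, 11.3 and 13.8 CPM in IR libraries, against 18.1, 20.0 and 23.1 CPM in SHAM libraries, and the groups were again apart (-0.78 ± 0.14, edgeR adjusted p = 0.000151). Next came the enzymes for alanine, Aars2 (-0.68), phenylalanine, Fars2 (-0.67), asparagine, Nars2 (-0.61), and cysteine, Cars2 (-0.57). Among the called synthetases the smallest change was that of the isoleucine enzyme Iars2 (-0.31).

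Each mitochondrial synthetase was then set against the cytosolic enzyme for the same amino acid, which serves ordinary ribosomes. Fars2 was paired with the subunit gene Farsa (log2 fold change -0.0078 in IR against SHAM hearts). Its ratio to the other subunit gene, Farsb, was not taken. The cytosolic genes did not move as a group: of 16, Farsb (-0.27) and Mars1 (-0.29) fell and Vars (0.28) rose in IR hearts. Among all genes tested, 21.7% were called lower and 25.3% higher. The median log2 fold change of the 16 cytosolic genes in IR hearts was -0.015. Within each library the log2 ratio of mitochondrial to cytosolic counts was taken, which removes any scaling between libraries, and set against the other group by exact permutation of all 12 libraries (two-sided), with p adjusted over 16 pairs. In IR hearts 11 of the 16 ratios were lower than in SHAM hearts and none was higher, with a median difference of -0.38. The 11 were the pairs of Aars2, Cars2, Fars2, Hars2, Iars2, Nars2, Rars2, Sars2, Tars2, Vars2 and Yars2, and for 6 of them no IR library reached the SHAM range. Leaving out any 1 library gave 9 to 12 called pairs.

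The widest gap was between Vars2 and Vars. Their log2 ratio averaged -1.44 ± 0.23 in IR hearts and -0.39 ± 0.13 in SHAM hearts (SD, n = 6 each), a difference of -1.05 (exact permutation, adjusted p = 0.00577, from the smallest p that 6 against 6 libraries allow, 0.00216). The log2 ratio of Yars2 to Yars averaged -0.71 ± 0.13 in IR hearts and 0.14 ± 0.19 in SHAM hearts (SD, n = 6 each), a difference of -0.85 (exact permutation, adjusted p = 0.00577). Both pairs had ranges that did not meet. The ratios of Ears2 and Pars2, which share the partner Eprs, and of Mars2, Wars2 and Lars2 were not called, with exact permutation adjusted p between 0.202 and 0.81. Hars2 and Hars share 195 exonic bases on opposite strands in an annotation of build GRCm38, and no source used here states whether counting used strand.

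**Figure D3:**
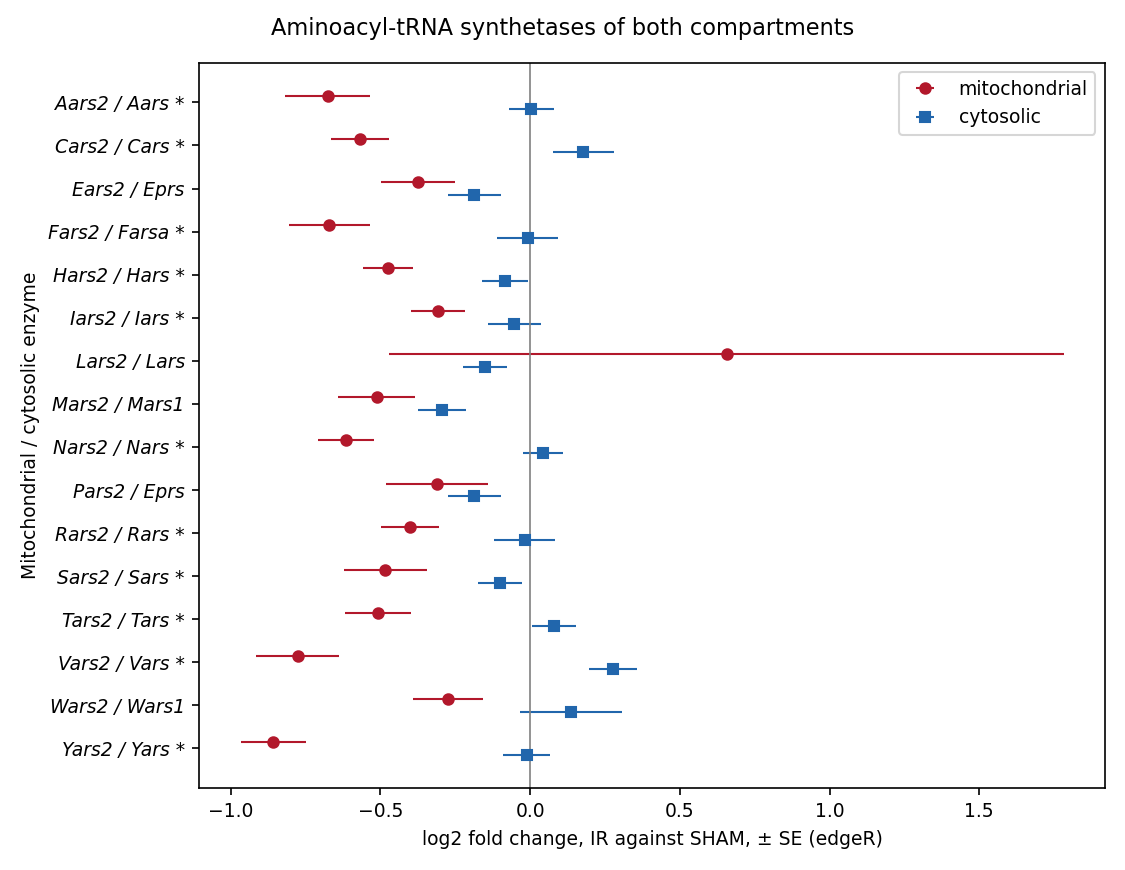
Log2 fold changes with standard errors (x axis) of each mitochondrial synthetase (red circles) and the cytosolic enzyme for the same amino acid (blue squares) in IR against SHAM hearts; an asterisk marks the 11 pairs whose ratio was called. The mitochondrial points lie below 0 for 15 of 16 genes, while the cytosolic points lie between -0.29 and 0.28.

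Other nuclear genes of the same processes, from lists of related function, were counted in the same fit. There 21.7% of all genes were called lower in IR hearts and 25.3% higher. Of 23 further genes for mitochondrial RNA transcription, processing and decay, 19 fell in IR hearts and none rose (median -0.52). The largest falls were in Mterf2 (-0.96), a relative of the termination factor, Ptcd3 (-0.82), a ribosome-bound repeat protein, and Fastk (-0.80). Of 20 further genes for mitochondrial translation and transfer RNA modification, 15 fell and none rose (median -0.47), led by Taco1 (-0.99), an activator of Cox1 translation, the peptide deformylase Pdf (-0.73) and Ybey (-0.67), a ribonuclease of ribosomal RNA.

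Genes for mitochondrial DNA upkeep and nucleotide supply behaved less evenly. Of 17, 8 fell and 2 rose, with a median of -0.21. The largest falls were in the succinyl-CoA ligase subunits Sucla2 (-0.96) and Suclg1 (-0.82), and the genes that rose were the primase Primpol (0.83) and the topoisomerase Top3a (0.35). Among 9 regulators of mitochondrial biogenesis, 3 fell and 1 rose, against 21.7% of all genes called lower and 25.3% called higher. Ppargc1b (-0.74), Esrra (-0.49) and Ppargc1a (-0.32) fell, and Pprc1, a growth-responsive relative of Ppargc1a, rose (0.74). The 2 factors whose motifs were searched above did not pass the test at the RNA level in IR against SHAM hearts. Nrf1 had a log2 fold change of 0.15 (edgeR adjusted p = 0.197) and Gabpa of -0.16 (edgeR adjusted p = 0.0598). In IR+Decursin against SHAM hearts Gabpa was called lower (-0.24, edgeR adjusted p = 0.0110), and Nrf1 was not called (0.061, edgeR adjusted p = 0.671).

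RNA of cell-type markers also changed in IR hearts. All 10 cardiomyocyte markers fell in IR hearts, with a median log2 fold change of -0.77, and their summed level was 39988 to 55351 CPM in IR hearts, against 74003 to 87916 CPM in SHAM hearts. All 9 macrophage markers rose (median 1.99), with sums of 1296 to 2743 CPM in IR hearts, against 425 to 574 CPM in SHAM hearts. All 9 fibroblast markers rose (median 0.92), with sums of 8597 to 12428 CPM in IR hearts, against 1454 to 1705 CPM in SHAM hearts. No marker was at 0 in a whole group. Among endothelial markers 2 of 8 fell, and 2 of 5 erythroid markers rose, against 21.7% of all genes called lower and 25.3% called higher. The share of counts from the mitochondrial genome was 20.1% to 28.3% in IR hearts, against 28.4% to 32.8% in SHAM hearts. The part of cell make-up in the members' falls was not tested.

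The second comparison asked whether decursin changed these genes after injury. With edgeR no member passed in IR+Decursin against IR hearts, and none of the 15088 genes did (0% called). By unadjusted p under 0.05, 18 members passed, all of them higher with decursin, while 18.0% of all genes (2712) passed in either direction. Of the 39 log2 fold changes 37 were above 0, with a median of 0.22, against -0.016 for all genes. With library totals alone 33 were above 0, and Mterf3, Mterf4, Tfb2m, Ssbp1, Twnk and Wars2 were below. Standard errors were 0.07 to 0.17 for the members other than Lars2. The smallest adjusted p, 0.0883, was shared by Qrsl1, Tfam, Yars2 and Nars2.

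Qrsl1 had 25.4, 28.5 and 33.7 CPM in IR+Decursin libraries, against 15.2, 19.9 and 24.5 CPM in IR libraries. No IR+Decursin library was as low as the highest IR library (log2 fold change 0.50 ± 0.10, edgeR adjusted p = 0.0883). Tfam had 37.2, 40.5 and 44.2 CPM in IR+Decursin libraries, against 28.3, 31.4 and 36.6 CPM in IR libraries, and was likewise apart in all 12 libraries (0.36 ± 0.08, edgeR adjusted p = 0.0883). Nars2 (0.40 ± 0.09) was the only other member without overlap. Yars2 had 15.9, 18.6 and 24.7 CPM in IR+Decursin libraries, against 12.3, 13.2 and 16.6 CPM in IR libraries, with 2 IR+Decursin libraries inside the IR range (0.47 ± 0.11). The translation factors had a median of 0.31, led by Tsfm (0.50 ± 0.12), and the transcription genes one of 0.10.

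These values depended on the tool and on single libraries. DESeq2 called 10 members higher with decursin, and 2.48% of all genes: Aars2, Gfm1, Mtif2, Nars2, Qrsl1, Tfam, Tsfm, Tufm, Vars2 and Yars2. Without the library IR+Decursin 1, edgeR called 14 members higher and 4.58% of all genes. Those 14 were the 10 just named and Cars2, Lrpprc, Polrmt and Sars2. Leaving out any other library gave no call with edgeR. Without IR+Decursin 6 the members' median log2 fold change was 0.14, with 34 of 39 above 0, and without IR+Decursin 1 it was 0.30, with 37 above 0.

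**Figure D4:**
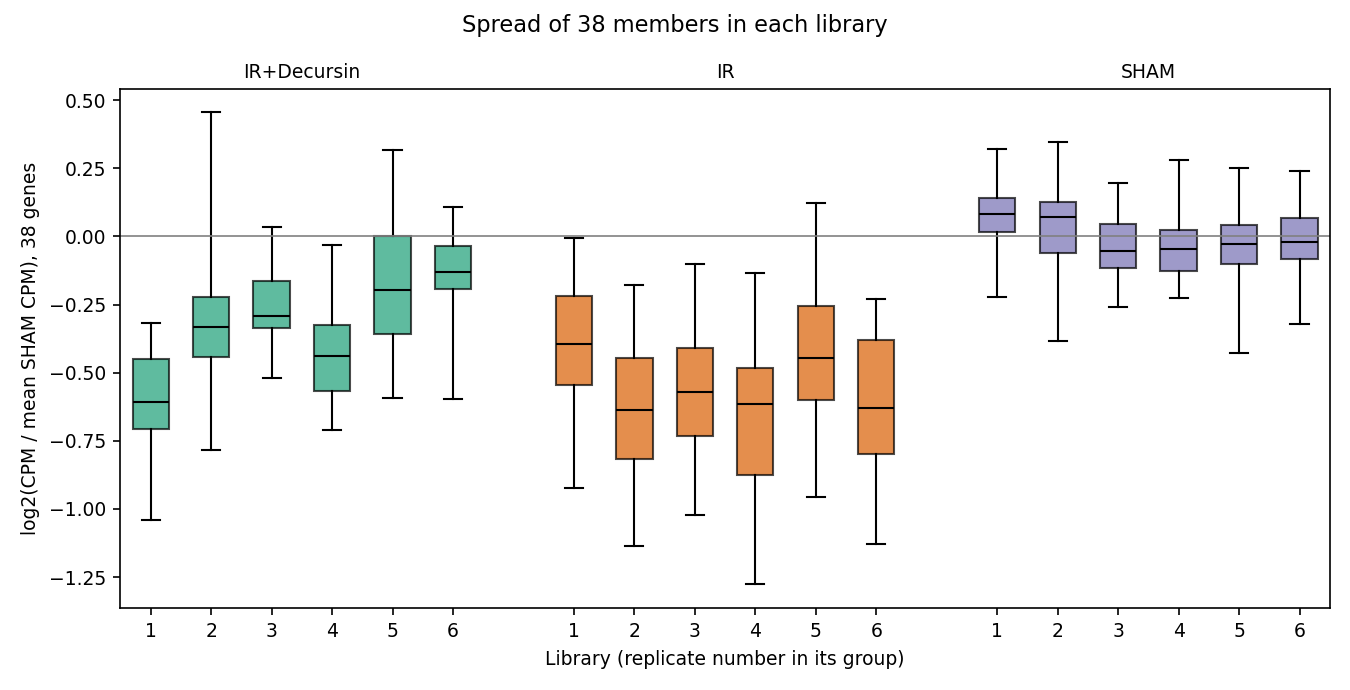
Log2 ratio of each of 38 members' CPM to its mean in SHAM libraries (y axis), 1 box per library, with boxes from the first to the third quartile, a line at the median and whiskers to the lowest and highest member. IR+Decursin medians run from -0.61 to -0.13, a wider range than in IR (-0.64 to -0.40) or SHAM (-0.055 to 0.081).

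Hearts given decursin differed from each other more than those of the other groups. The median of 38 members relative to their SHAM means was -0.61 in IR+Decursin 1, -0.44 in IR+Decursin 4, -0.33 in IR+Decursin 2, -0.29 in IR+Decursin 3, -0.20 in IR+Decursin 5 and -0.13 in IR+Decursin 6. In IR hearts it lay between -0.64 and -0.40, and in SHAM hearts between -0.055 and 0.081. IR+Decursin 1 and IR+Decursin 4 thus lay within the IR range, and IR+Decursin 6 nearest to SHAM. That last library was also unusual in other ways, with 7.54% of its counts from Gm26917 and 251 CPM of the atrial gene Myl7. IR+Decursin 1 had the lowest value of its group for 27 of the 38 members, and IR+Decursin 6 the highest for 19. The summed cardiomyocyte markers were 46156 CPM in IR+Decursin 1, 50958 CPM in IR+Decursin 4 and 76711 CPM in IR+Decursin 6, and the summed macrophage markers were 1698, 1665 and 584 CPM in the same libraries. The summed fibroblast markers were 11987 CPM in IR+Decursin 1, 11135 CPM in IR+Decursin 4 and 1664 CPM in IR+Decursin 6, the last of which lay within the SHAM range. In IR+Decursin 2, 3 and 5 the cardiomyocyte sums were 71187, 60352 and 63547 CPM. The macrophage sums of these 3 libraries were 1069, 1601 and 1069 CPM, and their fibroblast sums 6356, 10724 and 2796 CPM. The 10 cardiomyocyte markers had a median log2 fold change of 0.34 in IR+Decursin against IR hearts and the 9 macrophage markers of -0.60, with none called. Their part in the members' values was not tested.

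In the synthetase pairs, 2 ratios were higher in IR+Decursin than in IR hearts. The log2 ratio of Nars2 to Nars averaged -2.99 ± 0.20 in IR+Decursin hearts and -3.50 ± 0.20 in IR hearts (SD, n = 6 each), a difference of 0.51 (exact permutation, adjusted p = 0.0346). That of Yars2 to Yars averaged -0.35 ± 0.20 in IR+Decursin hearts and -0.71 ± 0.13 in IR hearts (SD, n = 6 each), a difference of 0.36 (exact permutation, adjusted p = 0.0346). Both had overlapping ranges. Of the 12 fits that left out 1 library, 9 called no pair, those without IR 3 and without IR 5 called 1 each, and that without IR+Decursin 1 called 6.

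The third comparison set IR+Decursin against SHAM hearts. It shares its libraries with the other comparisons and adds no separate replicates. In IR+Decursin hearts 23 members were lower than in SHAM hearts and none was higher, against 11.8% of all genes called lower. The median was -0.32, and in 6 members the groups did not overlap: Tfb2m, Mterf3, Mtif2, Mtrf1, Qrsl1 and Gatb. By class, 4 of 6 transcription genes, 2 of 4 replication genes, both RNA stability genes, 7 of 8 translation factors, 2 of 3 GatCAB subunits and 6 of 16 synthetases were called. Of the 23, 15 stayed called in all 12 fits that left out 1 library. Mterf4 and Mars2 lost the call in 9 of those fits, Tfb1m in 8, Polg2, Tsfm, Mtrf1l and Wars2 in 7 each and Cars2 in 2. Mtif2 had 35.7, 41.0 and 51.2 CPM in IR+Decursin libraries, against 55.5, 58.4 and 62.2 CPM in SHAM libraries (-0.50 ± 0.08, edgeR adjusted p = 0.000447).

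Some members called in IR hearts were not called here. Tfam had a log2 fold change of -0.19 (edgeR adjusted p = 0.0611), Polrmt of -0.19 (0.229), Aars2 of -0.19 (0.32), Nars2 of -0.21 (0.0939) and Vars2 of -0.33 (0.082). Missing the threshold does not show that they equalled SHAM, and of 27 other settings Tfam passed as lower in 7 and Vars2 in 3. In 4 of the 27, those that scale by library totals, the value of Tfam lay above 0. Ssbp1 had log2 fold changes of -0.39 ± 0.08 in IR+Decursin against SHAM hearts, and 0.029 ± 0.081 in IR+Decursin against IR hearts. Those of Mterf3 were -0.37 ± 0.07 and -0.029 ± 0.074. Without IR+Decursin 1, 15 members were called lower, against 8.50% of all genes, and without IR+Decursin 4 also 15. With library totals alone only Gfm1, Mtif2 and Mtrf1 were called lower, against 2.50% of all genes. Of the ratios of synthetase pairs, those of Hars2, Vars2 and Yars2 were lower in IR+Decursin than in SHAM hearts (differences of -0.34, -0.63 and -0.50, exact permutation, adjusted p = 0.0231 each).

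Lars2, the mitochondrial leucine enzyme, stood apart from the other 38. It had 58.1, 74.2 and 5613 CPM in IR+Decursin libraries, 56.985, 66.3 and 548 CPM in IR libraries and 69.7, 93.0 and 134 CPM in SHAM libraries. The highest values came from IR+Decursin 6 and IR 1 alone, the libraries with the most Gm26917 counts. Gm26917 reached 2332306 counts in IR+Decursin 6 and 308832 in IR 1, while the 16 remaining libraries held 16030 to 55028. Lars2 reached 144331 counts in IR+Decursin 6 and 18297 in IR 1, while the 16 remaining libraries held 1725 to 4142. Per 100 Gm26917 counts, Lars2 had 6.19 in IR+Decursin 6, 5.92 in IR 1 and 7.53 to 13.2 in the others.

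**Figure D5:**
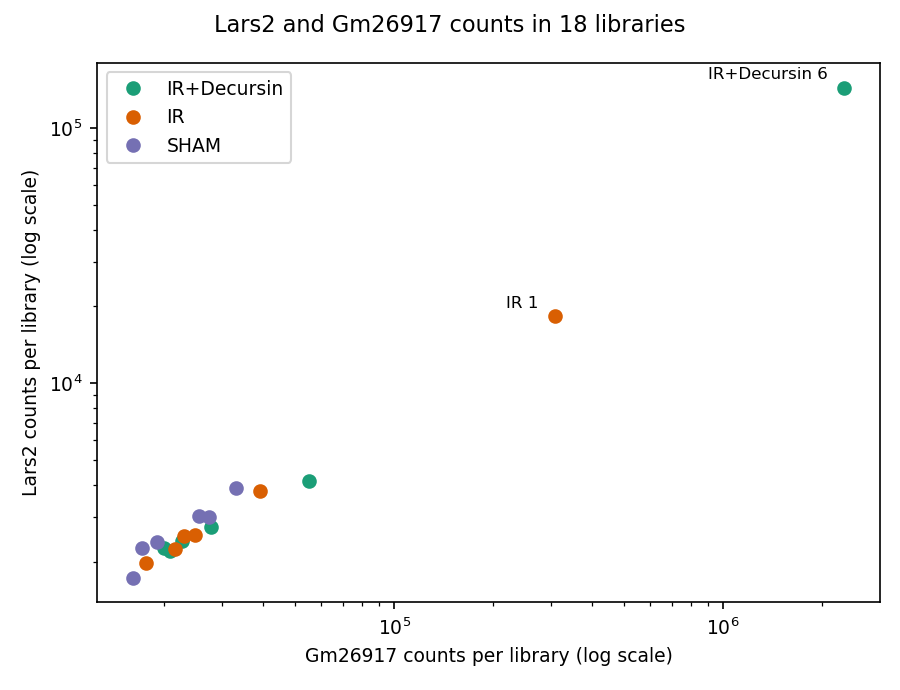
Counts of Lars2 (y axis, log scale) against counts of the ribosomal-RNA-like model Gm26917 (x axis, log scale) in each of 18 libraries, coloured by group. IR+Decursin 6 and IR 1 lie far up and to the right of the other 16 libraries.

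The fitted change of Lars2 followed those libraries. It was 0.66 ± 1.13 in IR against SHAM hearts and -0.43 ± 0.22 without both libraries (edgeR adjusted p = 0.129). In IR+Decursin against IR hearts it was 2.71 ± 1.19, and 0.087 ± 0.233 without both (edgeR adjusted p = 0.903). Its cytosolic partner Lars had 49.4 to 58.6 CPM in IR+Decursin libraries, 55.0 to 67.1 CPM in IR libraries and 59.3 to 74.4 CPM in SHAM libraries, with no library standing apart. No source used here states how reads that match several genes were counted.

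Levels per length, in FPKM, counts divided by gene length and by the library total, differed widely between members. Lars2 had the highest mean over 18 libraries, 82.3 FPKM, but 19.0 FPKM without IR+Decursin 6 and IR 1. It was followed by Tufm with 77.9 FPKM and Slirp with 76.8 FPKM. The lowest were the synthetases Nars2 (0.72 FPKM), Wars2 (0.89 FPKM) and Ears2 (1.16 FPKM). Slirp shares 2914 exonic bases with Snw1 on the opposite strand in the annotation of build GRCm38. In this way 16 members share more than 100 with some other gene. FPKM is counted per kilobase, and Slirp averaged 41.6 CPM but 87.8 FPKM in SHAM hearts. Its length in the FPKM was thus under a kilobase, too short to hold all 2914 bases. Whether the counted gene models hold part of this stretch, or the stretches of the other members, was not tested. How reads in such stretches were counted is not stated, so their effect on these levels is not known.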

How the data were processed

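RNA-seq of heart tissue from 18 mice gave 18 libraries, in 3 groups of 6 taken from the labels. The authors deposited raw counts per gene symbol, and FPKM values that equal those counts scaled by gene length and library total. The submitters' processing notes name fastp, HISAT2, HTSeq and build GRCm39, while the strand setting and the annotation release were not given there. Libraries held 27525876 to 34974692 counts, and the 38 members other than Lars2 had 59 to 6304 counts per library. No 2 libraries agreed within sampling noise.

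Counts were fitted with edgeR 4.0.16 in R 4.3.3 (quasi-likelihood test, TMM scaling, all 18 libraries in 1 fit, genes kept by edgeR's own filter on low counts), with p adjusted over 15088 genes and a threshold of 0.05. CPM values are TMM-scaled. The ratio of a mitochondrial to a cytosolic synthetase added 0.5 to each count. The fit was tested on simulated data. Alternatives were DESeq2 1.42.0, other scalings and filters, limma 3.58.1 (voom with quality weights, and limma-trend on log2 FPKM), the replicate number as a block, and fits without single libraries. The members and lists were chosen with earlier results of these data known. Genes were named by rule: the 2 with the largest change among those called in each class, the 3 with the smallest p with decursin, the 3 highest and lowest by FPKM, Lars2, and the 3 largest changes of each other list. Other members are given with their values for completeness of a class.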

Additional observations from a re-analysis of the deposited data

Results flagged for a closer look

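Among 39 groups of 6 libraries (13 named members in 3 groups), 2 values of Lars2 lay farther from the rest of their group than Dixon's 95% limit of 0.625 of the range allows. Chance flags about 1 in 20 groups. Lars2 had 5613 CPM in IR+Decursin 6, with a gap of 0.989 of the group's range, and 548 CPM in IR 1, with a gap of 0.879. These were also the libraries with the most Gm26917 counts. The cause was not tested.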

How the results depend on the processing

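The 35 members lower in IR than in SHAM hearts became 17 with library totals alone, 17 with limma-trend on FPKM logged after adding 1, 17 after adding 0.1, and 16 after dropping genes that averaged under 1 FPKM. FPKM carries the library totals, so these 4 share 1 scaling. Other settings gave 32 to 36 (32 without the libraries with over 1000 Xist counts, 34 to 36 without 1 library). The 23 lower in IR+Decursin than in SHAM hearts became 3, 3, 3 and 4 under the same 4 settings, 31 without the 2 libraries with over 100000 Gm26917 counts, 16 with no filter on low counts, and 15 to 25 without 1 library. The 1 member called higher there, Lars2, passed with RLE factors, with library totals alone, with scaling without mitochondrial and haemoglobin genes, and with at least 1 CPM in 6 libraries, and 0 to 1 passed without 1 library. In IR+Decursin against IR hearts DESeq2 called 10, and fits without 1 library 0 to 14.

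The called synthetase pairs, 11, 2 and 3 in the order of the report, ranged over 9 to 12, 0 to 6 and 0 to 5 without 1 library. In IR+Decursin against SHAM hearts 0 were called without SHAM 1, 3 or 4. Without the Gm26917 libraries they were 10, 0 and 5, and without the Xist libraries 10, 0 and 3. In IR+Decursin against IR hearts the smallest exact permutation adjusted p were then 0.127 and 0.254. With so few libraries left, 1 pair alone could not have passed there. These 0s therefore do not show that the ratios depended on the libraries left out. Replicate numbers did not pair the libraries (correlations of same-numbered libraries from -0.40 to 0.31). With the replicate block the members called were 35, 0 and 18. No pair was called (0, 0 and 0), with smallest exact sign-flip adjusted p of 0.0556, 0.25 and 0.167. Flipping the signs of 6 differences allows few distinct p. No pair could pass unless most of the 16 pairs reached the smallest of them, so these 0s do not show a loss.

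Among the 13 members named by rule, directions turned for Lars2, Ssbp1, Tfam and Polrmt. With library totals alone the direction of 4, 4 and 10 of all 39 members turned in the 3 comparisons, in the order of the report. Lars2 came to -0.43 in IR against SHAM hearts without the Gm26917 libraries, and to -0.43 (without IR 1) to 0.83 without 1 library. It came to -0.97 (without IR+Decursin 6) to 3.79 in IR+Decursin against IR hearts without 1 library. In IR+Decursin against SHAM hearts it came to -0.34 without the Gm26917 libraries and to -0.32 (without IR+Decursin 6) to 3.62 without 1 library. Ssbp1 in IR+Decursin against IR hearts came to -0.066 with library totals alone, -0.062, -0.067 and -0.062 with the 3 forms of limma-trend, -0.0031 without the Gm26917 libraries and -0.027 (without IR+Decursin 6) to 0.068 without 1 library. In IR+Decursin against SHAM hearts, library totals alone and the 3 forms of limma-trend gave 0.027, 0.024, 0.026 and 0.024 for Tfam and 0.019, 0.0049, 0.0035 and 0.0049 for Polrmt. None of the turned values was called, and apart from the shared scaling the cause was not tested.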
